A study of Mus musculus with 10 samples.

Results

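Accessible chromatin sites of Th17 cells that lie close together, in dense site clusters, were taken by position only. Sites were sorted along each chromosome and neighbours were joined when the gap from the end of a site to the start of the next was at most 12500 bp, and joined units of 6 or more sites were kept. This gave 1153 clusters with 10241 of the 39657 sites in the table (25.8%), and the 2 mitochondrial sites were left out. The rule used coordinates only. It could join only sites in the deposited table, which numbers them as differential and is taken as selected on these samples. Stretches of this kind are often called super-enhancers when histone or cofactor marks are also measured, but the data hold no such marks, so the label could not be checked and they are called dense site clusters here.

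An enhancer is a stretch of DNA, often outside promoters, where transcription factors bind and open the chromatin, and genes that set the identity of a cell often have many enhancers in a row. In T cells such rows are known at genes of lineage factors such as Bach2, Ets1 and Lef1, at cytokine receptors and at checkpoint receptors. ATAC-seq reads how open chromatin is from where a transposase inserts sequencing adapters. The mitochondrial enzyme complex pyruvate dehydrogenase (PDH) turns pyruvate into acetyl-CoA, and cells can also form acetyl-CoA from acetate. Enzymes that acetylate histones, a mark of active enhancers, use acetyl-CoA as their donor.

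The study profiled Th17 cells (helper T cells named for their cytokine IL-17) by ATAC-seq in 10 libraries. Naive CD4+ T cells from spleen and lymph nodes of mice with floxed PDH alleles were cultured for 3 days with CD3 and CD28 antibodies, IL-6, TGFβ and an antibody to IFNγ. KO cells carried CD4 Cre as well, which acts in all cells that have passed through CD4 expression, and WT cells had the floxed alleles without Cre. Each genotype was grown untreated, with 3 libraries each, or with 10 mM sodium acetate, with 2 libraries each, which gives 4 groups. Libraries are written as KO untreated 1, 2 and 3, WT untreated 1, 2 and 4, WT acetate 1 and 2, and KO acetate 1 and 3, after the numbers in the column names, and values are always listed in this order within a group.

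When 1 step of the deposited values is taken as 1 read, which is inferred and not a deposited count, the sites held between 3500172 and 13356560 reads per library, and the cluster sites from 938433 to 3683338 of these, and the median cluster site held 61 to 254 reads per library. WT untreated 4 and KO acetate 3 have column numbers that are missing from the sample titles, so these 2 columns were placed in their group only. Column names of KO untreated 1 to 3 and of WT untreated 1 and 2 begin with ATAC1, and those of WT untreated 4 and all acetate libraries begin with ATAC2. In KO, acetate therefore sets ATAC2 libraries against ATAC1 libraries only, and the 2 cannot be told apart without WT untreated 4, the 1 library on which a prefix term in the fit rests. The labels do not tie the replicates to separate animals, so p-values measure only the spread between these libraries, which may be technical. In bulk samples, fewer cells of a type and less signal per cell cannot be told apart. Of the marker genes checked, 4 of 9 Th17 and CD4 T cell genes with a site had a cluster (Cd4, Cd3e, Cd3d and Rora), against 0 of 4 B cell, 0 of 2 myeloid, 0 of 3 NK and innate lymphoid and 0 of 4 gamma-delta T cell genes with a site.

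The clusters ranged from 6 to 48 sites (median 7) and from 4.51 to 167 kb (median 28.1 kb), and together they spanned 36.2 Mb. They were 6.24% of the 18489 joined units, of which 10445 held 1 site and 6891 held 2 to 5 sites. At the edge of the rule, 362 clusters held exactly 6 sites and 543 units held exactly 5. The median gap between neighbouring sites within a cluster was 2.76 kb, and density ran from 1.29 to 13.3 sites per 10 kb. Sites were labelled by the closest protein-coding gene body up to 50 kb away. That is a label by nearness and does not say which gene a site acts on. Of the cluster sites 17.5% lay within 1 kb of either end of a gene, against 27.3% of the other nuclear sites, while 60.1% and 62.5% lay in gene bodies. The X chromosome held 4 clusters, with 30 of its 640 sites (4.69%), and chromosome 11 held 111, with 31.0% of its sites.

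The cluster with most sites covered Bach2, which encodes a repressor that holds back effector differentiation, with 48 sites at chr4:32238584-32405843 (GRCm38), all of them in the gene body. Next came Ikzf1, which encodes Ikaros (35 sites, chr11:11683295-11751349), Ets1, which encodes an ETS factor of lymphocytes (35 sites, chr9:32693560-32761124), and Prkcq, which encodes the T cell receptor kinase PKC-theta (33 sites, chr2:11143020-11226436). The stretch over Glb1 and the chemokine receptor gene Ccr4 held 32 sites, that at Spn, which encodes the surface sialoprotein CD43, 30, that at Rgcc 29, that over Lef1, which encodes a TCF/LEF factor of naive T cells, 29, that at the homing receptor gene Ccr7 28, and a run of histone genes at H2bc6 27. Of 33 loci fixed for their role in helper T cells 20 had a cluster. The other 13 had none among the sites of this table, with largest units of 1 to 5 sites. They include the cytokine genes Il17a, Il17f, Il21, Il2 and Ifng and the receptor genes Il23r and Ccr6. The factor genes Maf, Batf, Irf4 and Ahr, and Cd69, which encodes an early activation antigen, are also among them. Bach2 had 54 of its 63 sites in clusters, Ets1 41 of 48, Tcf7 16 of 17, Ctla4 17 of 17, Gata3 11 of 11, Il7r 6 of 6 and Rora 12 of 30.

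The 5 promoter windows printed here, from RefSeq on GRCm38.p6, were chosen because a cluster site lies over each and their clusters carry results. They are the 250 bases before the gene start of Ikzf1 (chr11:11689927-11690176, plus strand), Lef1 (chr3:131110047-131110296, plus), Il2ra (chr2:11642542-11642791, plus), Ccr4 (chr9:114496545-114496794, minus) and Itpripl2 (chr7:118491976-118492225, minus). Capitals mark the bases under the deposited site.
Ikzf1: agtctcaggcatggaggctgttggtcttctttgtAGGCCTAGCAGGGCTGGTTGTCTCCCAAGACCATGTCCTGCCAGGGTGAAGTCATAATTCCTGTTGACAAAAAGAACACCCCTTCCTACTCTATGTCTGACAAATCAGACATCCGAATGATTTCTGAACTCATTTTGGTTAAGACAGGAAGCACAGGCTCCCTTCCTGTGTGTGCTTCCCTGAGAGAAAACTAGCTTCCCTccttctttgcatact
Lef1: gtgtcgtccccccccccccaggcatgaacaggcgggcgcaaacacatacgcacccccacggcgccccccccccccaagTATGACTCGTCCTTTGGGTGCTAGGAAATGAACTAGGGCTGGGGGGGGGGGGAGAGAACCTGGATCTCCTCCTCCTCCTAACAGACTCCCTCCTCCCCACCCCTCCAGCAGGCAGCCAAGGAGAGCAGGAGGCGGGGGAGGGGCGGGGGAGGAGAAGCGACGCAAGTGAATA
Il2ra: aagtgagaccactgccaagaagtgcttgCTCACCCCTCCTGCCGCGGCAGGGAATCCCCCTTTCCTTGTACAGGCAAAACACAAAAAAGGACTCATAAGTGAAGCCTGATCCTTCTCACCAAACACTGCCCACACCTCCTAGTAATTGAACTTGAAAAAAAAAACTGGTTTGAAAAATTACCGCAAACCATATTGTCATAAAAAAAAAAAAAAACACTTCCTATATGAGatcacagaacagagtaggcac
Ccr4: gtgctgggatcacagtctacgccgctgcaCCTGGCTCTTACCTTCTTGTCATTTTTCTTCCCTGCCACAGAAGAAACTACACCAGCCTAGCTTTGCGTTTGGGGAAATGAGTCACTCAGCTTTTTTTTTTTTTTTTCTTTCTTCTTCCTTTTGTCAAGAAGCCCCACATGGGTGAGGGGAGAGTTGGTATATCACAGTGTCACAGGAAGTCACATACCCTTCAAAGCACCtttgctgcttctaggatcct
Itpripl2: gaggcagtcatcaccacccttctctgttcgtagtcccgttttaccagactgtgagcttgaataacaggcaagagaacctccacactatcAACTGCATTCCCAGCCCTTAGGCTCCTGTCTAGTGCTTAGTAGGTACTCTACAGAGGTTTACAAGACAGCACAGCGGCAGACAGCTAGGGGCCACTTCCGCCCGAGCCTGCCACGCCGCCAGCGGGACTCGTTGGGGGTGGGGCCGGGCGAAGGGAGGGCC

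The site in the Lef1 window had values of 107, 122 and 130 in KO untreated and 236, 205 and 299 in WT untreated, and 329 and 269 in WT acetate and 306 and 240 in KO acetate. KO untreated was below every other library there, with a log2 difference to WT of -1.02 ± 0.21 (SE; limma adjusted p = 2.35e-05). The Il2ra window held the smallest difference of these promoters. Its site had 570, 577 and 766 in KO untreated and 848, 738 and 1005 in WT untreated, so the groups overlapped, and the log2 difference was -0.44 ± 0.18 (limma adjusted p = 0.0181). Ikzf1, Ccr4 and Itpripl2 lay between, at -0.83, -0.90 and -0.76. After cyclic loess, a rescaling defined below, none of the 5 promoter sites was called, with log2 differences of -0.08, -0.18, 0.22, -0.18 and 0.08 in the order printed.

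Of all promoter windows in the RefSeq table (250 bases before to 50 after a start), 1186 overlapped a cluster site and 6428 another site, of 32851 in all. Both kinds were rich in CpG, with a median of 20 and 23 CpG dinucleotides per window against 7 over all windows. Fixed letter strings were searched on both strands. The AP-1 string TGANTCA was in 7.42% of windows under cluster sites, 4.39% under other sites and 7.81% of all windows, and the RUNX string TGTGGTTT in 2.02%, 1.10% and 1.78%. The ETS string CCGGAAGT was in 8.77%, 11.6% and 3.89%, the CRE string TGACGTCA in 3.04%, 4.45% and 1.79%, and the GC box GGGCGG in 64.5%, 69.0% and 35.7%. In the printed stretches, a script found the AP-1 string upstream of Ccr4 and the GC box upstream of Lef1 and Itpripl2, and none of the 10 strings upstream of Ikzf1 and Il2ra. These are matches of letters and not measured binding.

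The comparison of KO and WT untreated asks what loss of the enzyme does to the chromatin of these cells. In the deposited values almost every dense cluster was lower in KO. Of the 1153 clusters 1148 were lower and 3 higher, where 84.0% of all joined units were lower and 13.6% higher (limma on log2 of the summed value plus 1, adjusted p below 0.05 over all 18489 units). The median log2 difference was -0.84 for clusters and -0.78 for all units. Among single sites 124 cluster sites were higher and 10027 lower, against 9.07% higher and 89.6% lower of all sites, and 90 were not called. The table numbers its sites as differential, so it is taken as selected on these samples, and these counts are not independent evidence of a change.

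The size and direction of this shift depend on how the libraries are scaled. The 3 rescalings below move the median of all units toward 0 by construction, so whether all units truly shifted was not tested. When each library was scaled to the same total signal, by median-of-ratios factors or by cyclic loess, the median log2 difference of all units moved from -0.78 to -0.05, 0.02 and -0.01, and that of clusters to -0.11, -0.04 and -0.06. Clusters called lower and higher were then 174 and 13, 69 and 28, and 122 and 29, where 4.86% and 15.6%, 2.6% and 16.4%, and 9.84% and 14.5% of all units were. Under each of the 3 rescalings clusters were thus more often lower than higher, while all units were more often higher than lower. Values of the KO and WT libraries did not overlap in 1143 clusters as deposited, where 90.7% of all units did not. In all, 67 clusters were called lower and 3 higher under all 4 scalings. Calls under all 4 scalings were counted for clusters only, here and below, so they cannot be set against all units.

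Sites higher in KO were rarer the more neighbours a site had. They were 20.9% of sites that stood as units of 1, 8.57% in units of 2 to 3, 3.15% in units of 4 to 5, 1.70% in units of 6 to 9 and 0.583% in units of 10 or more. The order was the same under all 4 scalings. Sites were also ranked in 5 equal parts by mean signal over all 10 libraries, those compared here included. In the weakest part 62 of 1730 cluster sites (3.58%) and 2040 of 6202 other nuclear sites (32.9%) were higher, and in the strongest part 0.184% and 0.451%. Away from gene ends 1.37% of cluster sites and 15.6% of other sites were higher. Over all cluster and other nuclear sites 1.21% and 11.8% were, so both shares were smaller near gene ends. Sites called lower rose in share with unit size under the rescalings, for example from 1.29% in units of 1 to 4.95% in units of 10 or more under cyclic loess, where 2.41% of all sites were lower and 9.35% higher. These are counts of sites that share their libraries, and the difference between cluster and other sites was tested over libraries only, as follows. The table is taken as selected on these samples, so neither these counts nor the shares below are independent evidence of a difference.

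**Figure D1:**
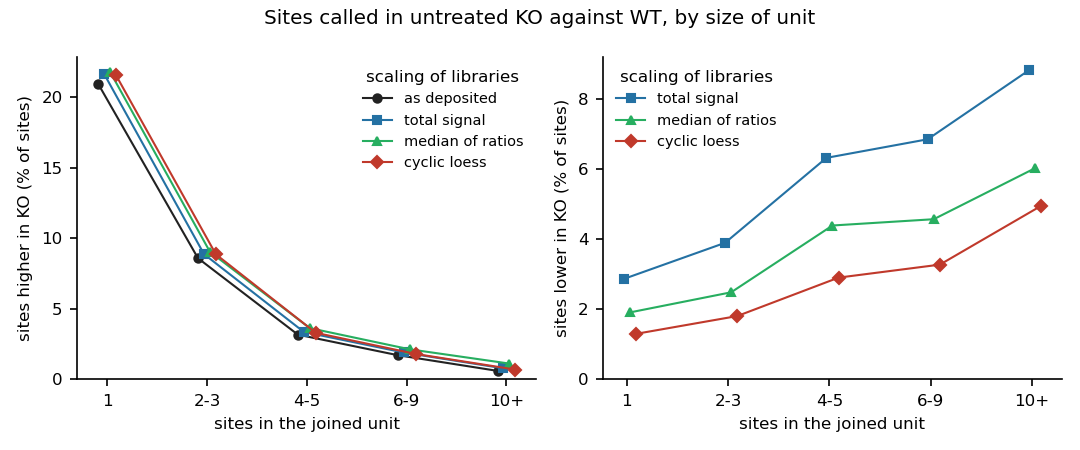
Share of sites called in KO against WT untreated (y axes, % of sites; limma adjusted p below 0.05) by the number of sites in the joined unit (x axis), higher in KO on the left and lower in KO on the right, with 1 line per scaling of the libraries; the deposited scaling is left out on the right, where the lowest share is 77.4%. The share higher falls from 20.9% in units of 1 to 0.583% in units of 10 or more as deposited, and the share lower rises with unit size under each of the 3 rescalings.

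Per library, the share of all nuclear signal that lay in cluster sites does not depend on a library factor. It does depend on which sites the table holds. It was 26.01%, 25.72% and 25.91% in KO untreated and 28.22%, 28.35% and 26.46% in WT untreated, and 26.86% and 27.71% in WT acetate and 27.45% and 26.53% in KO acetate. Every KO untreated library was below every other library. KO untreated (25.9% ± 0.150, SD, n = 3) and WT untreated (27.7% ± 1.06, SD, n = 3) differed by -1.80 percentage points (two-sided exact permutation p = 0.1, the smallest this design allows, and 0.4 adjusted over the 4 comparisons). WT untreated 4, the 1 WT untreated library with the ATAC2 prefix, was lowest of its group, and without it the difference was -2.41 points. In KO the mean share was 1.11 points higher with acetate, with no overlap between groups (exact permutation p = 0.2, the smallest possible, adjusted 0.4), and without KO acetate 1 the difference was 0.65 points. With acetate the genotypes overlapped and differed by -0.30 points (exact permutation p = 0.667), as did WT with and without acetate (-0.39 points, exact permutation p = 0.6). The difference with acetate was -0.76 points without KO acetate 1 and -0.72 without WT acetate 1, and 0.17 without KO acetate 3 and 0.13 without WT acetate 2, so its sign rests on single libraries. That between WT with and without acetate was 0.027 points without WT acetate 1, -0.81 without WT acetate 2, -0.12 without WT untreated 1, -0.057 without WT untreated 2 and -1.003 without WT untreated 4.

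**Figure D2:**
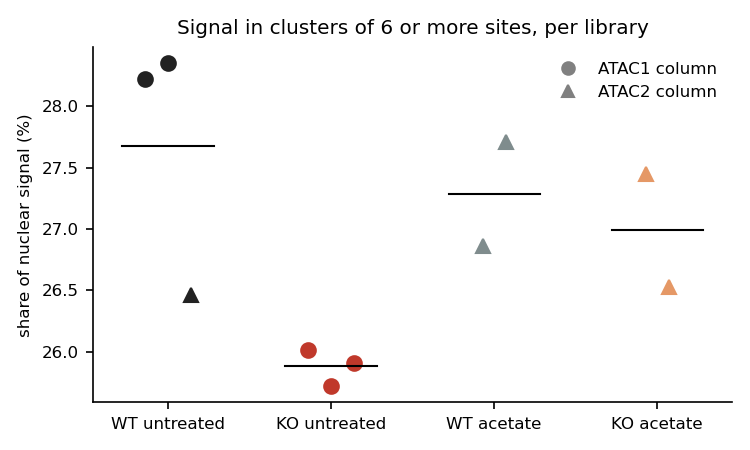
Share of all nuclear signal that lies in clusters of 6 or more sites (y axis, %), 1 point per library by group (x axis), with the group mean as a line and the column prefix as the shape. The 3 KO untreated libraries lie between 25.72% and 26.01%, below the other 7, which lie between 26.46% and 28.35%; the y axis does not start at 0.

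Among the largest clusters, the fall in the deposited values was shared by nearly all sites of a cluster but differed in size. Bach2 had summed values of 8105, 9091 and 10284 in KO untreated, 17709, 14224 and 14181 in WT untreated, 13769 and 13372 in WT acetate, and 12938 and 11154 in KO acetate. KO untreated was lowest without overlap, the log2 difference to WT was -0.75 ± 0.12 (limma adjusted p = 4.75e-08), and 48 of 48 sites were lower. Relative to the shift of all units this cluster did not fall: its difference was -0.01 with equal totals (limma adjusted p = 0.932) and 0.13 after cyclic loess (limma adjusted p = 0.0204, higher). The larger Ets1 cluster (-0.75), Ccr7 (-0.75) and the histone genes at H2bc6 (-0.64) likewise went to -0.02, -0.01 and 0.09 with equal totals. Histone genes are near-identical copies, so reads at H2bc6 may be split between them, which was not tested.

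Lef1, Prkcq and the Glb1 and Ccr4 stretch fell by more than the shift. Lef1 had 2362, 2603 and 2851 in KO untreated and 5860, 4947 and 4846 in WT untreated, then 5683 and 4931 in WT acetate and 4685 and 3916 in KO acetate. The untreated groups did not overlap, and the log2 difference was -1.001 ± 0.14 (limma adjusted p = 1.4e-10), -0.27 with equal totals and -0.19 after cyclic loess, called under all 4 scalings. Prkcq had 3903, 3975 and 4710 against 10320, 8011 and 8262, again with no overlap. Its log2 difference was -1.07 ± 0.13 (limma adjusted p = 4.25e-13), with 33 of 33 sites lower, and -0.34, -0.27 and -0.24 with equal totals, median of ratios and cyclic loess. The Glb1 and Ccr4 stretch was at -0.99 and also lower under all 4 scalings. Among other loci of T cell function in that set were Gzmb (-1.27), which encodes granzyme B, Id2 (-1.15), which encodes an inhibitor of E proteins, Xbp1 (-1.17), a factor of the unfolded protein response, and Cd247 (-1.05), which encodes the zeta chain of the receptor. These 4 were chosen after their values were seen.

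**Figure D3:**
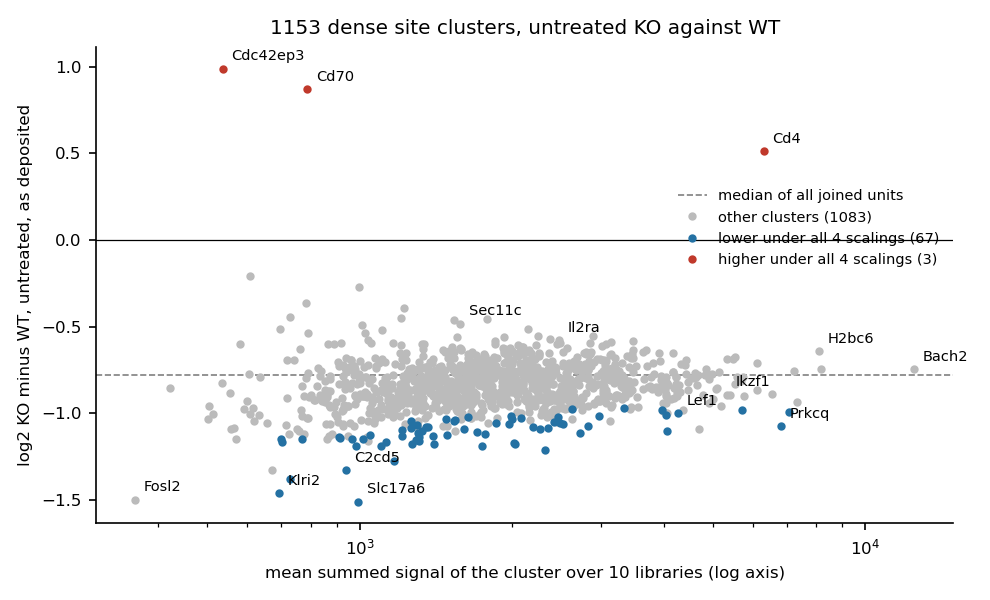
Log2 difference of KO minus WT untreated in the deposited values (y axis) against the mean summed signal over 10 libraries (x axis, log scale) for the 1153 clusters, 1 point per cluster, with clusters called in the same direction under all 4 scalings coloured (67 lower, 3 higher) and 14 clusters named. The dashed line is the median of all joined units at -0.78; Cdc42ep3, Cd70 and Cd4 stand above 0, and Slc17a6, Fosl2 and Klri2 are at the lower end.

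The lists of T cell genes held clusters more often than genes in general, in these counts. Of 12229 protein-coding genes with a site 1974 (16.1%) had a cluster. The figure was 19 of 25 for T cell transcription factors (76.0%), 13 of 19 for receptors and checkpoints (68.4%), 8 of 12 for regulatory T cell genes (66.7%) and for naive and memory genes, 12 of 20 for signal attenuators, 10 of 22 for the Th17 programme and for activation and AP-1 genes (45.5%), and 6 of 16 for Th1 and Th2 genes (37.5%). The lists were chosen with results of these data known, and a gene with a longer body can hold more sites.

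By direction in KO against WT untreated, all 26 clusters of the transcription factor list were lower in the deposited values (median -0.81), all 14 of the Th17 list (-0.90), 6 of 6 of the Th1 and Th2 list (-0.87), 10 of 10 of the regulatory T cell list (-0.92), 8 of 8 of the naive and memory list (-0.83), 15 of 15 of the activation list (-0.81) and 13 of 13 of the attenuator list (-0.90). In the receptor list 12 were lower and 1, the cluster of Cd4 and Lag3, was higher. All clusters had a median of -0.84. With equal totals, where 15.1% of all clusters were lower, 5, 3, 2, 2, 2, 1 and 4 of the clusters in the first 7 lists, in the order just given, were called lower and 0 were called higher. With median of ratios 2, 2, 2, 0, 0, 1 and 0 were lower, where 5.98% of all clusters were. After cyclic loess 3, 1, 2, 0, 1, 0 and 1 were lower, where 10.6% of all clusters were. Under both of these 1 regulatory T cell cluster was higher, and after cyclic loess 1 transcription factor cluster was too. Of all clusters 2.43% were higher with median of ratios and 2.52% after cyclic loess. In the receptor list 2 were higher and 1 lower under each rescaling. Tcf7, which encodes a factor of naive and stem-like T cells, was at -0.87 ± 0.15 as deposited and -0.14 with equal totals (limma adjusted p = 0.10), and Ctla4, an inhibitory receptor, at -0.96 ± 0.14 and -0.22 (limma adjusted p = 0.022). The Il2ra cluster with its promoter, which encodes the IL-2 receptor alpha chain, was at -0.58 ± 0.15 as deposited (limma adjusted p = 0.000213) and turned to 0.16 with equal totals, 0.23 with median of ratios and 0.21 after cyclic loess.

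At the other fixed loci, the 10-site cluster in Cblb, which encodes a ubiquitin ligase that restrains T cell receptor signals, was at -1.03 ± 0.16, and the 8-site cluster at Satb1, the gene of a chromatin organiser, at -0.96 ± 0.16. For Runx3, the gene of a RUNX factor of T cell lineages, the 8-site cluster at the gene was at -0.94 ± 0.16. The 6-site cluster 38.3 kb from Runx3 was at -0.72 ± 0.16, and Runx1 (15 sites) was at -0.74 ± 0.15. Gata3, the gene of the Th2 lineage factor, was at -0.81 ± 0.15, Tbx21, that of the Th1 lineage factor T-bet, at -0.67 ± 0.16, and the 2 clusters of Rora, that of a Th17 nuclear receptor, at -0.68 ± 0.17 and -0.91 ± 0.18. Among receptor genes, Il7r, for the IL-7 receptor alpha chain, was at -0.75 ± 0.16. The cluster 25.8 kb from Il6st, for the shared IL-6 signalling chain gp130, was at -0.77 ± 0.15. Socs1, an inhibitor of cytokine signals (12 sites), was at -0.90 ± 0.14, and Dusp10, a MAP kinase phosphatase gene (11 sites), at -0.94 ± 0.16. All of these were called lower as deposited and none was called under all 4 scalings. With equal totals the 6-site Runx3 cluster turned to 0.01, Tbx21 to 0.06 and the Rora cluster at -0.68 to 0.05, and after cyclic loess Runx1 to 0.05, Il7r to 0.02 and Il6st to 0.01.

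The largest falls were in clusters of 6 to 9 sites, and most clusters were of this size. Of the 1153 clusters 590 held 6 or 7 sites and 239 held 8 or 9. A cluster 46.8 kb from Slc17a6, which encodes a vesicular glutamate transporter (9 sites, chr7:51717882-51750552), had 352, 361 and 408 in KO untreated and 1153, 1013 and 1033 in WT untreated. With acetate it had 1483 and 1440 in WT and 1488 and 1208 in KO. KO untreated stood far below the other 7 libraries, at a log2 difference to WT of -1.51 ± 0.18 (limma adjusted p = 8.52e-15), and between -0.78 and -0.71 under the 3 rescalings, all called, with 9 of 9 sites lower. Fosl2, which encodes an AP-1 factor of Th17 cells (6 sites, chr5:32154880-32169275), had 116, 157 and 169 against 523, 507 and 265. WT untreated 4 was low there but above every KO library, and the log2 difference was -1.50 ± 0.21 (limma adjusted p = 1.24e-10). It was called with equal totals (-0.77) and median of ratios (-0.70) and not after cyclic loess (-0.70, limma adjusted p = 0.055).

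Klri2, a gene of the killer-cell lectin receptor family (7 sites, chr6:129742551-129751587, 2.07 kb from the gene), had 253, 212 and 281 in KO untreated and 805, 727 and 546 in WT untreated. The groups did not overlap, the log2 difference was -1.46 ± 0.19 (limma adjusted p = 5.88e-12), and it was called lower under all 4 scalings. A cluster 263 kb from Cblb was at -1.38 ± 0.19, and C2cd5 at -1.33 ± 0.18, both lower under all 4 scalings.

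Against this, 3 clusters were higher in KO untreated, and all 3 were so under all 4 scalings. Cd70, which encodes the ligand of CD27 (7 sites, chr17:57135093-57154217), had 626, 832 and 1004 in KO untreated and 412, 436 and 475 in WT untreated. The groups did not overlap, the log2 difference was 0.87 ± 0.18 (limma adjusted p = 7.53e-06), and 7 of 7 sites were higher, by 0.73 to 1.41. A cluster 100.2 kb from Cdc42ep3, which encodes an effector of the GTPase CDC42 (7 sites, chr17:79455328-79464316), had 708, 717 and 938 against 421, 403 and 357. It also had no overlap, a log2 difference of 0.99 ± 0.20 (limma adjusted p = 2.95e-06) and 7 of 7 sites higher, by 0.75 to 1.56. These 2 were the only clusters with every site called higher, while in 986 every site was called lower.

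The third was the cluster over Cd4, the coreceptor gene, and Lag3, an inhibitory receptor gene next to it (14 sites, chr6:124879835-124931038). It had 5838, 5617 and 7240 in KO untreated and 4457, 3685 and 4973 in WT untreated (log2 difference 0.51 ± 0.13, limma adjusted p = 0.00025), and its sites split into 7 higher and 7 lower. The 7 higher ones were 6 in the Cd4 body and 1 between Cd4 and Lag3, at 1.37 to 4.72, and the 7 lower ones were at -1.29 to -0.73. The site at chr6:124879835 had 403, 374 and 499 in KO untreated and 28.7, 20.1 and 5.53 in WT untreated. The site at chr6:124885264, the strongest of the cluster, had 1963, 1816 and 2458 against 705, 561 and 660. Every KO library was above every WT library at both. The Cre transgene of the KO mice is named for Cd4, and reads from Cd4 sequence in a transgene and from the locus cannot be told apart in these values.

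**Figure D4:**
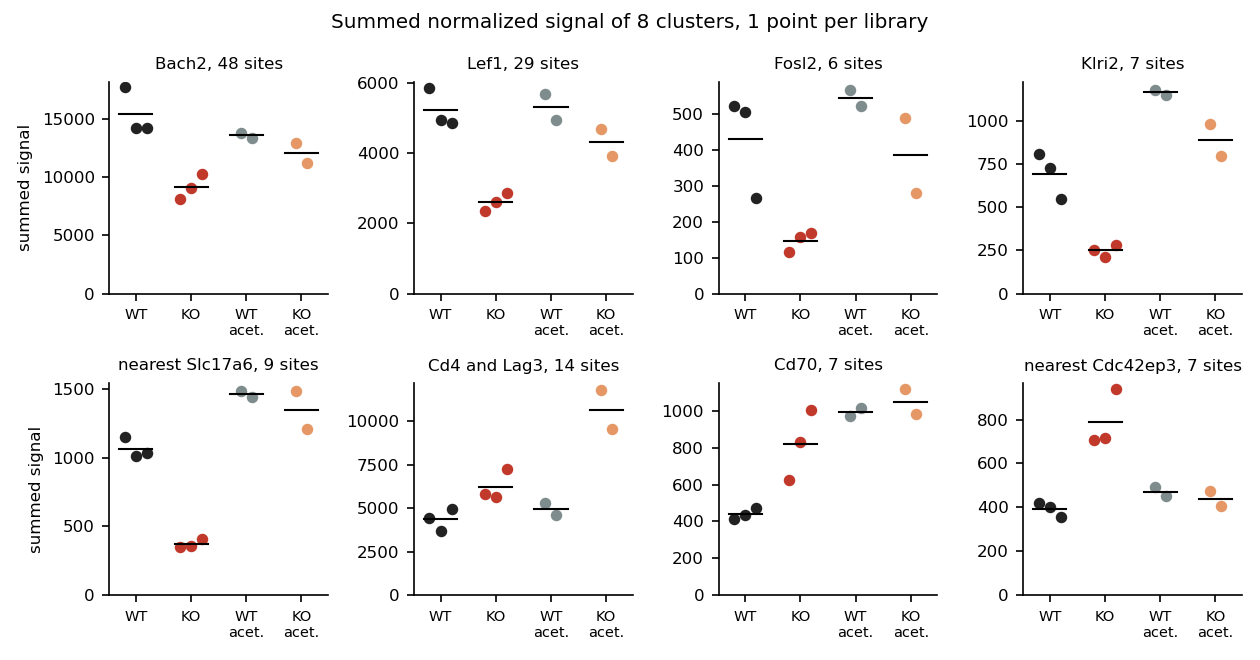
Summed normalized signal (y axis, deposited units, from 0) of 8 clusters in each library (1 point each) by group (x axis), with the group mean as a line. Bach2, Lef1, Fosl2, Klri2 and the cluster nearest Slc17a6 are lowest in KO untreated, while Cd70 and the cluster nearest Cdc42ep3 are lowest in WT untreated and Cd4 is highest in KO with acetate.

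Within a cluster, the strongest site held a median of 31.4% of its signal, lay near a gene end in 33.0% of clusters against 15.6% for the other sites, and had a median log2 difference of -0.72 against -0.94 for the other sites (-0.01 and -0.08 after cyclic loess). The strongest site was picked by mean log2 signal over all 10 libraries, KO untreated included, so the pick itself favours sites that fell less in KO. In 94 clusters at least 1 site was higher, and in 92 of these another was lower. The widest range outside Cd4 was in a 7-site cluster at Dnmt1, the maintenance DNA methyltransferase gene, where sites ran from -1.41 to 3.23. Its site at chr9:20940101 had 65.3, 97.1 and 103 in KO untreated and 3.75, 12.1 and 12.2 in WT untreated, and 12.3 and 13.3 in WT acetate and 16.2 and 19.6 in KO acetate. KO untreated stood above all other libraries, by 3.23 on the log2 scale against WT untreated (limma adjusted p = 1.3e-11). Clusters at Gm46963 (-2.37 to 1.74), Satb1 (22 sites 277 kb from the gene, -2.23 to 1.23) and Sec11c (-1.11 to 2.49) also held sites of both directions.

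**Figure D5:**
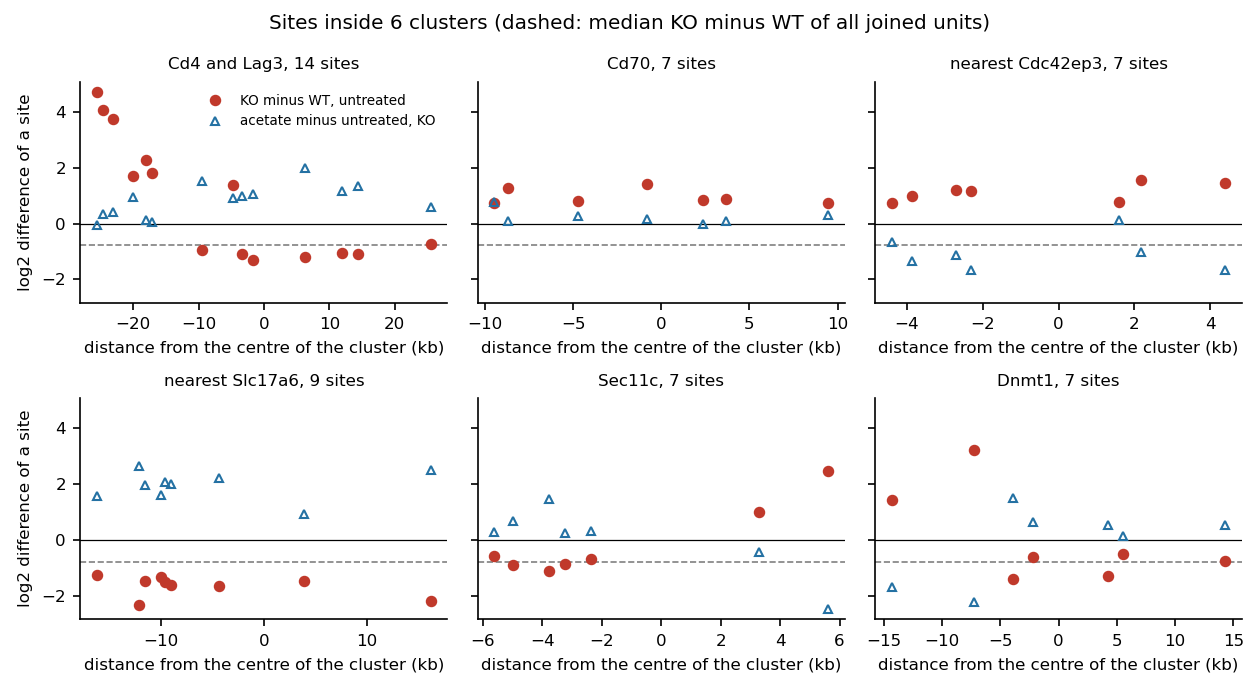
Log2 differences of single sites (y axis) by distance from the centre of their cluster (x axis, kb) in 6 clusters, for KO minus WT untreated (filled circles) and acetate minus untreated in KO (open triangles), with the median of all units for KO minus WT dashed. All 7 sites of Cd70 and of the cluster nearest Cdc42ep3 lie above 0 for KO minus WT, all 9 of the cluster nearest Slc17a6 lie below, and Cd4, Sec11c and Dnmt1 hold both.

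KO and WT with acetate asks whether the genotypes still differ when acetate is supplied. Of the 1153 clusters 1 was called higher and 0 lower, and 0.00541% of all units were called, which is the same 1 (limma; 9 clusters had an unadjusted p under 0.05). That cluster was Cd4 and Lag3, with 11804 and 9542 in KO acetate and 5289 and 4634 in WT acetate. The groups did not overlap, and the log2 difference was 1.10 ± 0.16 (limma adjusted p = 4.62e-07). Of the cluster sites 7 were called, all higher, where 0.0227% of all sites were higher. They were the same 7 sites of the Cd4 and Lag3 cluster that were higher untreated, now at 2.17 to 4.39. The counts were equal under all 4 scalings, the median cluster difference was -0.18, and 560 clusters did not overlap, where 35.1% of all units did not. With 2 libraries in each group, smaller differences would not be called: Bach2 was at -0.18 ± 0.15, Lef1, Fosl2 and Klri2 were below WT in both libraries, and the cluster nearest Slc17a6 was at -0.12 ± 0.21. Without KO acetate 1, 0 clusters were called.

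Acetate against untreated in KO asks whether acetate shifts the chromatin of KO cells. In the deposited values 999 clusters were higher and 1 lower, where 57.1% of all units were higher and 8.67% lower. The median was 0.60 for clusters and 0.55 for all units. Among cluster sites 6204 were higher and 118 lower, where 54.6% and 5.94% of all sites were. With equal totals 254 clusters were higher and 84 lower, against 14.3% and 17.5% of all units, with median of ratios 147 and 155, against 10.8% and 21.3%, and after cyclic loess 243 and 91, against 14.1% and 17.6%. Under all 4 scalings 146 were higher and 1 lower. The groups did not overlap in 1074 clusters, where 82.0% of all units did not. Without KO acetate 1 the counts called as deposited were 489 clusters and 3215 cluster sites. With the column prefix as a term, a fit chosen after seeing the data, 398 clusters were called, all higher, and 3694 cluster sites were higher and 25 lower.

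The largest rise was in the cluster nearest Slc17a6, at 1.84 ± 0.20 (limma adjusted p = 7.5e-18) and 1.23 to 1.31 under the rescalings, with 9 of 9 sites higher. Klri2 had 981 and 795 with acetate and 253, 212 and 281 without, a log2 rise of 1.83 ± 0.21 (limma adjusted p = 5.25e-15), and all 7 sites rose. The cluster 263 kb from Cblb rose by 1.66 ± 0.21, Upb1, a pyrimidine catabolism gene, by 1.51 ± 0.18 and Srgap3 by 1.43 ± 0.18, each called under all 4 scalings. Among the fixed loci, the 8-site Runx3 cluster had 2208 and 2099.6 with acetate against 891, 1130 and 1076, a rise of 1.07 ± 0.18 (limma adjusted p = 3.05e-08), and Dusp10 had 1868 and 1294 against 633, 699 and 932, a rise of 1.06 ± 0.18 (limma adjusted p = 1.39e-07). Neither overlapped, and both were called under all 4 scalings. Fosl2 rose by 1.35 ± 0.23 (limma adjusted p = 1.89e-07). Its KO acetate libraries had 491 and 281, and after cyclic loess the rise was not called (0.71, limma adjusted p = 0.066). By unit size, the median site difference was 0.52 in units of 1 site, 0.66 in units of 6 to 9 and 0.71 in units of 10 or more, where it was 0.61 over all sites. Bach2, the cluster with most sites, was at 0.40 ± 0.14 as deposited (limma adjusted p = 0.00908) and at -0.14, -0.22 and -0.19 under equal totals, median of ratios and cyclic loess, where the last 2 were called lower. Of the 26 transcription factor clusters 23 were called higher as deposited, and of the 13 attenuator clusters 13 were, where 86.6% of all clusters were. With equal totals, median of ratios and cyclic loess, 4, 3 and 5 of the transcription factor clusters were higher and 2, 5 and 3 lower, and 4, 1 and 4 of the attenuator clusters were higher and 0, 1 and 1 lower. In the same order, 22.0%, 12.7% and 21.1% of all clusters were higher and 7.29%, 13.4% and 7.89% lower. The comparison shares its KO untreated libraries with that of KO and WT.

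The 1 cluster that fell was the cluster nearest Cdc42ep3. It had 472 and 404 with acetate and 708, 717 and 938 without, with no overlap, and 6 of its 7 sites were lower. The log2 fall was -0.84 ± 0.22 (limma adjusted p = 0.000572), and -1.45 to -1.37 under the rescalings. With a prefix term it was -0.63 and not called (limma adjusted p = 0.170). Cd70 had 1118 and 983 with acetate against 626, 832 and 1004, so the groups overlapped, and its difference of 0.38 ± 0.20 was not called (limma adjusted p = 0.0855) and turned to -0.16 with equal totals. At the Dnmt1 site at chr9:20940101 the value fell with acetate by 2.22 on the log2 scale.

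Acetate against untreated in WT moved few clusters. Of the 1153, 5 were higher and 5 lower (0.867%), where 3.55% of all units were higher and 2.23% lower. Cluster sites called were 165 higher and 313 lower, against 2.91% and 3.02% of all sites. Called counts without WT acetate 1 and without WT acetate 2 were 2 clusters each, and 6 without WT untreated 1. Cluster sites called went from 478 to 56 without WT acetate 1, 165 without WT acetate 2, 178 without WT untreated 1 and 930 without WT untreated 4. Within the ATAC2 libraries, which are WT untreated 4 and both acetate libraries for this comparison, 10 clusters were higher and 0 lower, and with a prefix term 8 and 0. Under all 4 scalings 4 were higher and 5 lower, while the rescalings called 38 higher and 24 lower, 27 and 33, and 44 and 25 in the order of equal totals, median of ratios and cyclic loess, where 4.61% and 2.49%, 4.6% and 2.79%, and 4.23% and 3.29% of all units were. The groups did not overlap in 172 clusters, where 27.7% of all units did not.

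Cd70 rose most, from 412, 436 and 475 to 975 and 1017. The groups did not overlap, the log2 rise was 1.18 ± 0.20 (limma adjusted p = 5.15e-06), and 4 of 7 sites rose. Klri2 rose from 805, 727 and 546 to 1178 and 1151 (0.77 ± 0.21, limma adjusted p = 0.0113), Upb1 from 1566, 1264 and 1678 to 2345 and 2329 (0.65 ± 0.18, limma adjusted p = 0.0108) and Itpripl2 from 1332, 1091 and 1100 to 1963 and 1707 (0.65 ± 0.19, limma adjusted p = 0.0156), each without overlap. Within the ATAC2 libraries Cd70 (1.07), Klri2 (1.09) and Itpripl2 (0.73) were called and Upb1 was not (0.48, limma adjusted p = 0.208). With a prefix term Itpripl2 was not called either (limma adjusted p = 0.0623). The cluster 263 kb from Cblb rose by 0.64 ± 0.21 (limma adjusted p = 0.0448), and its adjusted p was 0.071 to 0.091 under the rescalings. Within the ATAC2 libraries it rose by 1.16 and was called.

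The largest fall was at Emsy, which encodes a chromatin protein that binds BRCA2 (13 sites, chr7:98555299-98586596). It went from 2690, 2082 and 1547 to 1222 and 932, with no overlap and 8 of 13 sites lower (log2 -0.94 ± 0.18, limma adjusted p = 7.01e-05). KO libraries stood at 909, 976 and 1143 untreated and 943 and 1014 with acetate, a difference of -0.04 ± 0.18 as deposited and -0.57 with equal totals. Cradd, which encodes a caspase adaptor (-0.74), Treml2, a receptor gene (-0.70), Atxn7, which encodes a subunit of the SAGA acetyltransferase complex (-0.67), and Prn (-0.62) were the other 4 that fell, each called under all 4 scalings. Within the ATAC2 libraries none of the 5 falls was called. Emsy was then at -0.54 (limma adjusted p = 0.191), Cradd at -0.65 (0.134), Treml2 at -0.45 (0.302), Atxn7 at -0.37 (0.463) and Prn at -0.25 (0.625).

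The interaction, the effect of acetate in KO minus that in WT, was positive in 824 clusters and negative in 2 as deposited, where 27.4% of all units were positive and 6.45% negative, with a median of 0.66. Among cluster sites 2593 were positive and 44 negative, where 19.5% and 3.61% of all sites were. These counts were unstable. The number of positive clusters was 3 without KO acetate 1, 427 without KO acetate 3, 13 without WT acetate 2, 39 without KO untreated 2, 199 without KO untreated 1 and 141 without WT untreated 1. Cluster sites called were 68, 1451, 448, 604, 302 and 481 without these libraries in the same order, 1283 without WT acetate 1, 4700 without WT untreated 2 and 4069 without WT untreated 4. The last of these compares the genotypes within each prefix, and 686 clusters were positive and 2 negative there. With equal totals, median of ratios and cyclic loess 9, 3 and 4 clusters were positive and 3, 4 and 2 negative, where 0.265%, 0.119% and 0.909% of all units were positive and 9.9%, 11.1% and 6.74% negative. Under all 4 scalings 3 clusters were positive and 2 negative. The positive ones were the cluster nearest Slc17a6 (1.39 ± 0.28, limma adjusted p = 0.00025), Vsir, the gene of the checkpoint receptor VISTA (1.06), and Sik1, a salt-inducible kinase gene (1.05), of which the last 2 lie outside the rule for named clusters and were chosen after their values were seen. The negative ones were Cdc42ep3 (-1.10 ± 0.31, limma adjusted p = 0.0119) and Cd70 (-0.80 ± 0.29, limma adjusted p = 0.0316). The effect of acetate on Cd70 was 1.18 in WT and 0.38 in KO, and on the cluster nearest Cdc42ep3 0.26 in WT and -0.84 in KO, and the effects of 0.38 and 0.26 were not called.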

How the data were processed

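ATAC-seq signal at 39657 sites in 10 libraries was used. The authors deposited 1 table of normalized signal per site. Per the submitters' processing notes, the build was GRCm38 and the tools named are BWA 0.7.16a, Genrich, Picard 2.10.9, deepTools 3.5.1, DiffBind 3.6.1, FastQC 0.11.5, DESeq and DESeq2, and their roles are not given in the sources used here. Nearly all sites are 201 bp wide, and in each library the values are whole multiples of 1 step within 0.001 reads, so 1 step was taken as 1 read. These read numbers are inferred, and a count model was not run on them.

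Cluster values are sums over sites. Log2(value + 1) was fitted with limma 3.58.1 (R 4.3.3) with 4 group means over all 10 libraries, and p-values were adjusted by the Benjamini-Hochberg method over all 39657 sites or all 18489 units with a threshold of 0.05. Differences are on this log2 scale, errors are SE unless given as SD, and clusters share libraries across comparisons. Besides the deposited scaling, 3 rescalings were fitted: equal total signal, median-of-ratios factors and cyclic loess. Shares were compared by exact permutation tests (Python 3.11.15, scipy 1.17.1, numpy 2.4.6, pandas 2.3.3), and plots were drawn with matplotlib 3.10.9. The fits were tested on simulated data in which few sites or units changed. Most sites differed in the deposited values, so that test does not cover the choice of scaling.

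Named clusters were the 10 with most sites, the 10 with most signal, up to 5 rises and 5 falls per comparison among called clusters whose groups did not overlap, clusters at 33 fixed loci, and the 5 with the widest range of site differences. The members, gene lists and this rule were chosen with earlier results of these data known. Same-numbered libraries of different groups had correlations of site deviations from -0.12 to 0.33, so the numbers were not taken as pairs. Other alternatives were the gap, the number of sites, the pseudocount, a filter on low signal, a replicate block, libraries of 1 column prefix only, leaving out each library and, chosen after seeing the data, the prefix as a term.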

Additional observations from a re-analysis of the deposited data

Results flagged for a closer look

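The effect of acetate differed between KO and WT by limma's interaction term, as deposited, in 826 clusters and in 2637 cluster sites, where 27.4% of all units were positive and 6.45% negative. With equal totals, median of ratios and cyclic loess it did so in 12, 7 and 6 clusters, and as deposited without KO acetate 1 in 3. Among named clusters the difference (KO minus WT, log2) was 1.39 nearest Slc17a6, 1.15 at Chst11, 1.08 at Prss16, 1.08 at C2cd5 and 1.07 at Klri2, and it was -1.10 nearest Cdc42ep3 and -0.80 at Cd70. Those nearest Slc17a6 and Cdc42ep3 and at Cd70 were called under all 4 scalings, while the other 4 were called in the deposited scaling only.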

How the results depend on the processing

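Counts of clusters called, in the order equal totals, median of ratios, cyclic loess, a gap of 5 kb and at least 10 sites, were 187, 97, 151, 375 and 324 for KO against WT untreated, 338, 302, 334, 323 and 307 for acetate in KO, 62, 60, 69, 4 and 1 for acetate in WT, and 12, 7, 6, 286 and 283 for the interaction. The first 3 settings keep the 1153 clusters and the last 2 define fewer, so counts cannot be compared between them. At least 10 sites keeps 233 clusters of 10 to 14 sites, 58 of 15 to 19 and 33 of 20 or more. The 324 called for KO against WT untreated were all of these. Of all 18489 units, the 3 rescalings called 3788, 3520 and 4501 for that comparison and 5887, 5933 and 5870 for acetate in KO. They called 1313, 1366 and 1391 for acetate in WT and 1879, 2076 and 1414 for the interaction. KO against WT with acetate had 0 with a gap of 25 kb. Cluster sites called with equal totals, median of ratios and cyclic loess were 933, 704 and 543 for KO against WT untreated, 2794, 2682 and 2502 for acetate in KO and 120, 127 and 131 for the interaction, and 793 after cyclic loess for acetate in WT. The replicate block gave 1483 cluster sites for acetate in WT and 5391 for the interaction; the numbers do not pair the libraries. Leaving out 1 library gave 1146 to 1152 clusters for KO against WT untreated, 0 to 1 with acetate, 489 to 1068 for acetate in KO, 2 to 15 for acetate in WT and 3 to 1052 for the interaction, and 9269 to 10194, 7 to 7, 3215 to 6791, 56 to 930 and 68 to 4700 cluster sites. The difference in share of signal with a gap of 5 kb was -0.64 points for KO against WT untreated and 0.40 points for acetate in KO. With median log2 of cluster sites minus others within 5 classes of signal, and without the top 1% of sites, both chosen after seeing the data, it was -0.22 (log2) and -1.93 points for KO against WT untreated. With the column prefix as a term, chosen after seeing the data, 398 clusters and 3719 cluster sites were called for acetate in KO and 4081 cluster sites for the interaction. The planned count model was not run.

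KO against WT untreated changed sign at some named clusters. With median of ratios it was 0.058 at Bach2, 0.018 at Bach2, 0.063 at Cavin1, 0.056 at Ccr7, 0.28 at Dnmt1, 0.012 at Ets1, 0.049 at Ets1, 0.16 at H2bc6, 0.23 at Il2ra, 0.038 at Il6st, 0.055 at Il7r, 0.15 at Rbm17, 0.12 at Rora, 0.061 at Runx1, 0.082 at Runx3, 0.32 at Sec11c and 0.13 at Tbx21. After cyclic loess it was 0.13 at Bach2, 0.029 at Cavin1, 0.098 at Ccr7, 0.24 at Dnmt1, 0.084 at Ets1, 0.20 at H2bc6, 0.21 at Il2ra, 0.012 at Il6st, 0.017 at Il7r, 0.13 at Rbm17, 0.075 at Rora, 0.053 at Runx1, 0.053 at Runx3, 0.29 at Sec11c and 0.097 at Tbx21. With equal totals it was 0.21 at Dnmt1, 0.092 at H2bc6, 0.16 at Il2ra, 0.085 at Rbm17, 0.050 at Rora, 0.012 at Runx3, 0.25 at Sec11c and 0.061 at Tbx21. As a mean of log2 site values it was 0.014 at Dnmt1. The rescalings move the median of all units by construction; the cause of the other changes was not tested.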
